A study of Mus musculus with 6 samples.

Results

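The baseline transcriptome of cultured mouse stem spermatogonia was described from the 3 wild-type lines of a series of 6 lines. The lines were chosen by their genotype label alone. All values below come from the wild-type lines, and no line of the other genotype (Ephb2-KO, 3 lines) was analysed here. The lines are called lines 1, 2 and 3 after the numbers in their titles, and values given in threes follow that order. All 3 descend from adult mouse spermatogonial stem cells grown in StemPro-34 medium with supplements and growth factors. They received a GFP reporter plasmid by electroporation without a guide RNA, were sorted for GFP and were subcloned, so each line is a subclone sequenced once. Lines 1 and 2 were at passage 20 and line 3 at passage 18, so passage and line cannot be told apart. The labels do not say whether the subclones came from separate animals, and the spread given here is the spread between these 3 libraries. The labels name no feeder cells and no strain.

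Spermatogonial stem cells sit on the basement membrane of the seminiferous tubule and keep sperm production going by dividing to renew themselves and to give progenitors. They depend on glial cell line-derived neurotrophic factor (GDNF), which Sertoli cells and other somatic neighbours secrete and which the germ cell reads through the coreceptor GFRA1 and the receptor tyrosine kinase RET. Fibroblast growth factors act beside it through the ERK kinase pathway. In culture the cells are held before meiosis, so the genes of stem, progenitor and early germ cell states are the ones a reader would look for first, with the genes of spermatids and testis somatic cells as the contrast.

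RNA selected for poly(A) tails was sequenced with strand information, and the deposited counts summed to 34047758, 26218662 and 24928648 reads. Levels between genes are given in TPM (transcript abundance), the count divided by the deposited exon length and scaled to the same sum in each library. Differences between lines for 1 gene are given in CPM, the count scaled to the library total and not to length. A count of 3, used as the floor of detection, was 0.0881, 0.114 and 0.120 CPM. Floors and intervals cover counting error only, since reads copied by PCR are not independent molecules. A gene is called on at 1 TPM or more in 3 of 3 lines and off under 0.1 TPM in 3 of 3 lines. All other genes are called in between.

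Of the 41053 genes in the files, 13100 were on, which is 31.9% of all genes. Another 19360 were off (47.2%), of which 17719 had a count of 0 in every line, and 8593 were in between. Among the 20541 genes matched to a protein-coding annotation, 11600 were on (56.5%) and 4980 were off (24.2%). These shares are the background for each list below. The median mean level of genes that were on was 23.0 TPM. At least 10 TPM in 3 of 3 lines was reached by 7999 genes, at least 100 TPM by 1418 and at least 1000 TPM by 86. The 10 genes with the most reads held 3.16%, 3.75% and 4.96% of each library, and 1388, 1203 and 1111 genes were enough to hold 50% of the reads. Line 3 was the most concentrated of the 3 libraries by these measures.

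The most abundant messages were those of the translation machinery. Eef1a1, the elongation factor that brings aminoacyl-tRNA to the ribosome, stood at 8038, 9135 and 12910 TPM. It was highest in line 3. Ribosomal protein genes took up most of the places behind it. Rplp1, an acidic protein of the ribosomal stalk, was at 7663, 8421 and 9659.8 TPM. Rpl32, of the large subunit, was at 7964, 5809 and 7232 TPM, and Rps12, of the small subunit, at 6398, 5920.1 and 7781 TPM. Of 92 cytoplasmic ribosomal protein symbols 86 were on, with a median of 1199 TPM, and together they held 6.50, 6.08 and 8.06% of the reads. Line 3 had the largest share, and 66 of the 84 members with a mean of at least 1 CPM were highest there, against 31.8% of all 13759 genes at that mean. Near-identical processed copies of these genes share reads with them, and reads with several matches were not counted, so the levels are uncertain on the low side.

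Once ribosomal, mitochondrial and predicted genes were set aside, the 15 most abundant included genes of iron storage, protein folding and the cytoskeleton. They were headed by Yam1 and Mir6236, described below, and Eef1a1. Fth1, the heavy chain of ferritin, came next at 6144, 7135 and 9479 TPM. Hsp90ab1, the constitutive HSP90 chaperone, was at 3771, 3567 and 3029 TPM, and its reads varied little between lines, with a highest-to-lowest ratio of 1.14 in CPM. Eef2, the translocation factor of the ribosome, was at 2276, 3432 and 1830.2 TPM and Actb, cytoplasmic beta-actin, at 1741, 2713 and 1402 TPM. Sod1, a superoxide dismutase, was at 2019, 1986 and 1472 TPM. Ndufb9 and Cox6b1, subunits of respiratory complexes I and IV, were at 1712, 1435 and 1906 TPM and 1678, 1398 and 1823 TPM. Line 3 was the highest and line 2 the lowest for both. In 4 of the 15 genes line 3 was the highest by over 4-fold in CPM against the lowest line. Lgals1, galectin-1, was at 1251, 2164 and 5149.9 TPM. Gsn, the actin-severing protein gelsolin, was at 874, 579 and 5123 TPM, with the largest ratio of the 4 (9.78). Cd63, a tetraspanin of late endosomes, was at 979.6, 1167 and 3752 TPM, and S100a6, a calcium-binding protein, at 549.6, 682 and 3706 TPM.

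Several entries near the top are not ordinary messages. Yam1 had the highest mean level, at 8194, 12269.6 and 10418 TPM, and its model (chr17:39846958-39848788, plus strand, GRCm38) shares 1245 of its 1831 bases with the 18S ribosomal RNA-related locus Rn18s-rs5 of RefSeq (chr17:39846354-39848202). Mir6236 (6784, 15014 and 6203 TPM) and Gm23935 (3339.6, 10656 and 4887 TPM) have models of only 123 and 57 bases, and dividing by so short a length makes their TPM high: Mir6236 had 302, 660.2 and 301 CPM. The 5.8S ribosomal RNA entry n-R5-8s1 stood at 1938, 3977 and 2744 TPM. These 4 entries held 0.590%, 0.912% and 0.811% of the reads and 2.03%, 4.19% and 2.43% of the TPM, with line 2 highest on both scales. Mitochondrially encoded genes held 0.849, 1.396 and 0.735% of the reads, again most in line 2, where 9 of the 11 members with a mean of at least 1 CPM were highest (25.8% of all such genes). The most abundant was mt-Co1, a core subunit of cytochrome oxidase, at 4869, 7737 and 3505 TPM.

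Genes of germ cell identity were on at high levels. In the list of 24 genes for germ cell identity and the piRNA pathway, 20 were on (background 56.5% of protein-coding genes), 4 were in between and 0 were off, with a median of 92.5 TPM. Dazl, an RNA-binding translational regulator, was the most abundant at 1144, 1279 and 691 TPM (1038 ± 308 TPM, SD, n = 3). Line 3 was its low line. Tex19.1, a germ cell factor linked to transposon control, was at 406, 414 and 274 TPM. Mael, of the piRNA pathway, was at 317, 312 and 289 TPM and the most level of the list, with a CPM ratio of 1.03 between the highest and lowest lines. Ddx25, a germ cell RNA helicase, was at 280, 222 and 139.6 TPM. Ddx4, the germ cell helicase known as VASA, was at 203, 112 and 102 TPM and about as high in line 3 as in line 2. Piwi proteins carry piRNAs, and the 3 mouse members were far apart. Piwil2 (MILI), the member known from spermatogonia, was at 194, 316 and 122 TPM. Piwil1 (MIWI), best known from later stages, was at 5.48, 1.14 and 2.24 TPM, and Piwil4 (MIWI2), best known from fetal germ cells, was in between at 0.437, 0.198 and 0.415 TPM. The lowest value of Piwil2 thus lay above the highest value of the other Piwi genes. Tdrd6 and Fkbp6, which act in later germ cells, were also in between, at 0.0805, 0.302 and 0.0288 TPM and 1.28, 1.23 and 0.364 TPM. Gtsf1, a partner of Piwi proteins, had 571, 2 and 1 reads and is taken up again with the genes found in line 1 alone.

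**Figure D1:**
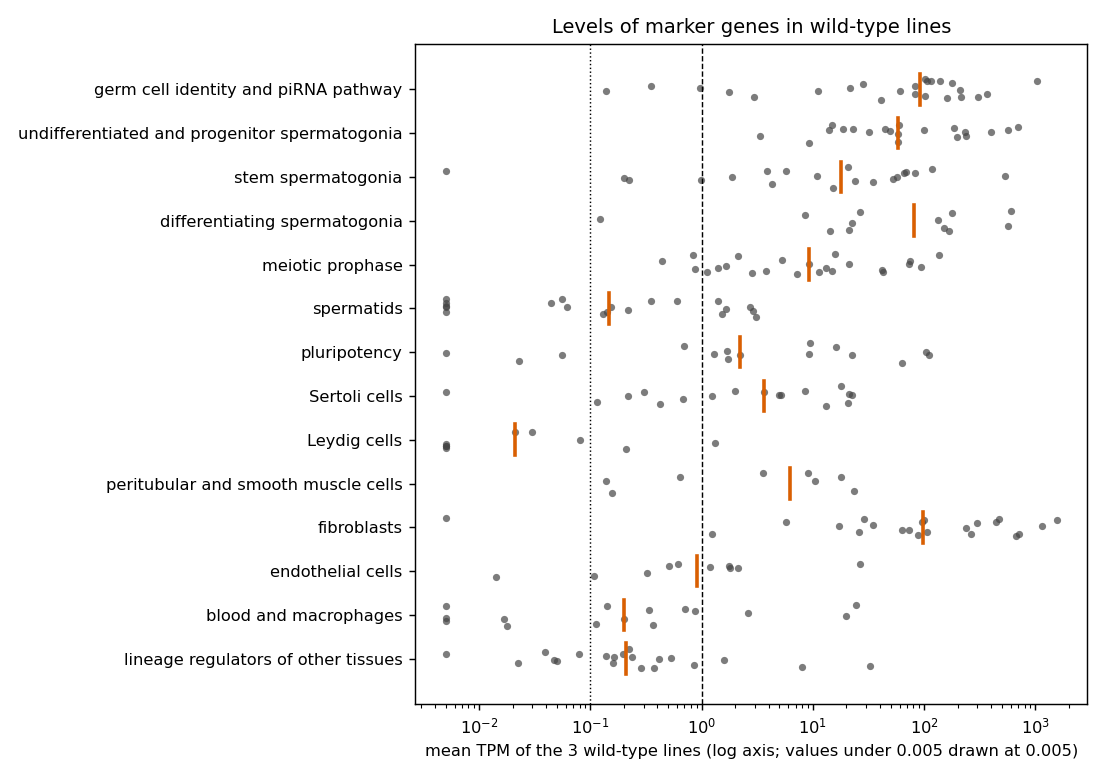
Each point is 1 gene's mean TPM over the 3 wild-type lines (horizontal log axis), grouped by the marker list named on the vertical axis, with the median of each list as a vertical bar, 1 TPM as the dashed line and 0.1 TPM as the dotted line. Germ cell identity, spermatogonial and fibroblast lists have medians from 18.0 to 97.4 TPM, and spermatid, Leydig cell and blood lists have medians from 0.0210 to 0.202 TPM.

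Stem cell genes spanned a wide range of levels. Of 20 genes in the stem spermatogonia list, 14 were on (background 56.5%), 5 were in between and 1 was off. Egr4, an immediate-early zinc finger factor, was the most abundant at 641, 819 and 144 TPM, and Egr2 of the same family was at 148, 154 and 47.2 TPM. The GDNF receptor parts were Gfra1 at 81.1, 122 and 45.0 TPM (82.7 ± 38.6 TPM, SD, n = 3) and Ret at 56.0, 77.8 and 24.4 TPM. Nanos2, an RNA-binding protein that holds germ cells in the stem state, was at 70.0, 63.5 and 38.2 TPM. The polycomb gene Bmi1 was nearly level across lines at 67.9, 63.0 and 67.0 TPM. Line 3 was the lowest line for Egr4, Egr2, Gfra1, Ret and Nanos2.

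Genes that GDNF is known to regulate spanned a wider range than its receptors. Id4, an inhibitor of helix-loop-helix factors that marks the most primitive spermatogonia, was at 36.6, 46.8 and 19.8 TPM. Bcl6b, a transcriptional repressor, was at 21.3, 36.6 and 14.1 TPM. Etv5, an ETS factor needed for stem cell maintenance, was at 18.2, 167 and 18.7 TPM. Lines 1 and 3 were close for Etv5 and line 2 stood apart, with a highest-to-lowest ratio of 9.06 in CPM against 2.14 for Id4 and 2.34 for Bcl6b. Lhx1, a LIM homeobox factor, was low, with 68, 46 and 16 reads (1.36, 1.21 and 0.399 TPM). Pou3f1, a POU factor, was at 6.20, 4.60 and 0.712 TPM and Eomes, a T-box factor of a stem subset, at 3.11, 1.75 and 0.758 TPM. Shisa6 (0.153, 0.358 and 0.0954 TPM) and Pdx1 (0.376, 0.124 and 0.165 TPM), both used to mark small stem subsets, were near the floor, and T (brachyury) had 0 reads in 3 of 3 lines, where 3 reads would have given 0.105 to 0.138 TPM. Lhx1, Pou3f1 and Eomes reached 1 TPM in lines 1 and 2 and not in line 3.

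All 20 of 20 genes for undifferentiated and progenitor spermatogonia were on. Uchl1, a deubiquitinase abundant in early spermatogonia, was highest at 898, 763 and 409.8 TPM, with line 3 lowest. Ddit4, an inhibitor of mTORC1, followed at 569, 558 and 579.5 TPM and was level. Nanos3, an RNA-binding protein, was at 595, 243 and 353 TPM, and Pramef12, a germ cell gene, at 315, 245 and 146 TPM. The transcription factors of the list had lower means. Zbtb16 (PLZF), the repressor that maintains undifferentiated spermatogonia, was at 134, 113 and 53.0 TPM and Sall4, a zinc finger factor that binds it, at 72.2, 67.5 and 37.6 TPM. Lin28a, which blocks let-7 maturation, was at 276, 258 and 164 TPM. Neurog3, a helix-loop-helix factor of progenitors, was at 21.1, 2.36 and 32.0 TPM: line 2 was the low line and line 3 the high one. Nanos3 and Rarg, which like Neurog3 are ascribed to progenitors, were also lowest in line 2, with Rarg, a retinoic acid receptor, at 43.7, 20.0 and 32.0 TPM. The list as a whole did not share that order. By total counts 6 of its 20 members were lowest in line 2 (40.3% of all genes) and 12 in line 3 (45.2%). All 10 surface proteins used to enrich these cells were on, over a wide range. Cd9, a tetraspanin, was highest at 736, 489 and 514 TPM, and Itgb1, the beta-1 integrin, was at 298, 454 and 429.6 TPM. Cd24a was at 469.8, 363 and 218 TPM and Mcam, a cell adhesion molecule, at 214, 259.5 and 109 TPM. Thy1, a standard sorting marker of these cells, was among the lowest at 7.35, 3.75 and 2.75 TPM, as was Ngfr at 1.44, 4.37 and 1.30 TPM. Cdh1, E-cadherin, was at 18.6, 12.7 and 2.62 TPM and thus lowest in line 3.

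**Figure D2:**
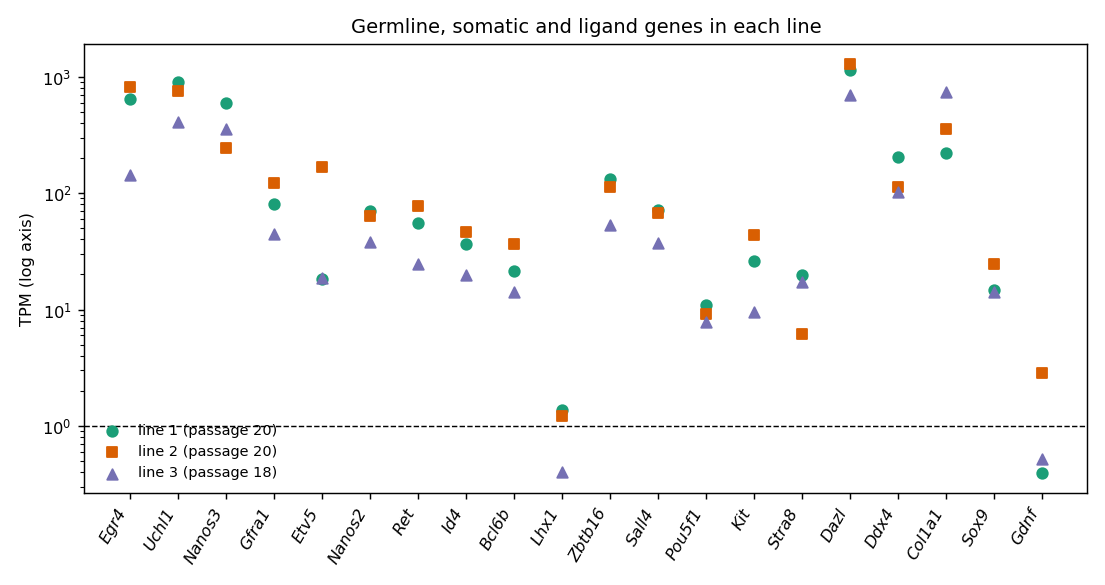
TPM (vertical log axis) of 20 genes in each of the 3 wild-type lines, 1 symbol per line, with 1 TPM as the dashed line. Line 3 lies lowest for Egr4, Gfra1, Ret, Id4 and Zbtb16 and highest for Col1a1, and line 2 lies highest for Etv5 (18.2, 167 and 18.7 TPM).

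Genes of differentiating spermatogonia were present too, with 11 of 12 on (background 56.5%). Dmrt1, a regulator of the mitosis-to-meiosis decision that stem spermatogonia also express, was at 866, 546 and 403 TPM and Tex101, a germ cell surface protein, at 699.6, 674 and 339 TPM. Both were lowest in line 3. Rhox13, an X-linked homeobox gene, stood at 211, 208 and 84.7 TPM, and Ccnd2, cyclin D2, at 138, 283 and 116 TPM. Kit, the receptor that marks entry into differentiation, was at 26.2, 43.8 and 9.56 TPM, and Stra8, the retinoic acid-induced gatekeeper of meiosis, at 19.8, 6.21 and 17.1 TPM. Kit was highest in line 2 and Stra8 lowest there. The paired helix-loop-helix factors of differentiation were far apart: Sohlh2 was at 212, 144 and 96.4 TPM with 6163, 3189 and 2245 reads, and Sohlh1 had 2, 0 and 3 reads, at or under the floor.

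Meiotic genes split into those that were on and those near the floor. Of 23 genes, 15 were on (background 56.5%), 8 were in between and 0 were off, with a median of 9.14 TPM. Rec8, the meiotic cohesin, was the most abundant at 211, 131 and 67.5 TPM. The central elements of the synaptonemal complex came next: Syce2 was at 115, 87.5 and 78.5 TPM and Syce3 at 115, 53.6 and 57.5 TPM. Syce1, the third of them, was at 109.5, 61.7 and 48.2 TPM. Line 1 was the highest for these 4 genes. Several genes that act at recombination were low. Spo11, which makes the breaks, was at 1.33, 0.517 and 0.751 TPM, and Prdm9, which places them, at 1.66, 0.867 and 0.802 TPM. Mei1, needed for break formation, was at 1.42, 0.676 and 0.429 TPM, and Msh4, of the crossover pathway, at 0.530, 0.387 and 0.398 TPM. None of these reached 1 TPM in lines 2 and 3. Dmc1, the meiotic recombinase, was on at 16.6, 12.0 and 10.6 TPM. Tex12, of the central element, had 11, 0 and 17 reads. Sycp1, Sycp3 and Hormad1 were in between because of a single line and are described below.

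Genes of spermatids were near or at the floor. In the list of 20, 4 were on against a background of 56.5%, 11 were in between and 5 were off (background 24.2%). Prm1, Prm2 and Tnp2, which pack the sperm genome, had 0 reads in 3 of 3 lines, as had Catsper1 and Tssk2, and Tnp1 had 1, 0 and 0 reads. For Prm1 the floor of 3 reads was 0.519 to 0.683 TPM. The 4 that were on stayed below 5 TPM in every line. Ldhc, the germ cell lactate dehydrogenase, was at 4.78, 1.69 and 1.74 TPM, and Izumo1, the sperm protein for egg fusion, at 4.75, 2.14 and 2.38 TPM. Hspa1l was at 3.74, 2.50 and 2.38 TPM and Akap4, of the sperm tail sheath, at 2.09, 1.16 and 1.34 TPM. Acrv1, Acr, Crisp2, Spaca1, Odf1, Smcp, Pgk2, Tssk1, Tssk6 and Gapdhs were in between, the highest being Smcp at 2.87, 1.13 and 0.958 TPM.

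Pluripotency genes were partly on. Of 15, 7 were on (background 56.5%), 6 were in between and 2 were off. Dppa5a, an RNA-binding protein of early embryos and germ cells, was highest at 132, 102 and 97.1 TPM. The Kruppel-like factors Klf4 and Klf2, also common in somatic cells, were at 86.8, 97.0 and 125 TPM and 76.4, 46.7 and 64.5 TPM. Pou5f1 (OCT4), the pluripotency factor that spermatogonia keep, was at 10.8, 9.21 and 7.82 TPM, and the 3 lines were close. The other core factors were lower: Nanog was at 1.59, 2.95 and 0.498 TPM and Sox2 at 0.474, 1.14 and 0.444 TPM. Both stayed below 1 TPM in at least 1 line, as did Esrrb, Zfp42, Dppa3 and Prdm14. Tdgf1 had 0 reads and Fgf4 had 0, 1 and 1. Of 20 regulators of other lineages, 3 were on. Foxa2, a forkhead factor of endoderm, was at 38.3, 38.5 and 21.1 TPM. Gata6, also of endoderm, was at 7.37, 6.98 and 9.57 TPM, and Nkx2-5, of the heart, at 2.56, 1.05 and 1.13 TPM. Ins2 had 0 reads, and Gata1, Gfap and Alb had at most 3 in any line.

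Among testis somatic cells, Leydig cell genes were nearly silent. Of 9, 0 were on and 7 were off (background 24.2%): Cyp17a1, Hsd3b1, Insl3 and Lhcgr had 0 reads in 3 of 3 lines, and Nr5a1 had 5, 3 and 3. Star, the cholesterol transporter of steroidogenic cells, was in between at 1.92, 1.38 and 0.619 TPM and Cyp11a1 at 0.220, 0.200 and 0.211 TPM. In the Sertoli cell list 10 of 17 were on (background 56.5%). The receptor for follicle-stimulating hormone, Fshr, had 0 reads in 3 of 3 lines, Amh had 7, 0 and 0 and Dhh had 11, 11 and 1. Those on at the highest levels were Rhox5, a homeobox gene, at 24.8, 20.5 and 22.6 TPM and Inhbb, an inhibin subunit, at 12.2, 23.0 and 28.6 TPM. Kitl, the ligand of KIT, was at 7.79, 16.5 and 38.2 TPM, and Sox9, the Sertoli cell determinant, at 14.7, 24.6 and 14.1 TPM. Wt1 and Gata4, which other mesenchymal cells express too, were at 16.6, 16.4 and 6.41 TPM and 12.8, 6.78 and 5.72 TPM. Cldn11, Clu and Trf, products of mature Sertoli cells, stayed under 1 TPM in every line.

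Blood and endothelial markers were mostly low. In the blood and macrophage list 2 of 15 were on, Cd14 at 24.3, 15.8 and 18.9 TPM and Cd68 at 17.1, 43.6 and 12.5 TPM. The defining leukocyte gene Ptprc (CD45) had 0, 5 and 4 reads and Cd3e 0, and the other 11 were in between or off. In the endothelial list 1 of 10 was on, Egfl7 at 28.8, 27.4 and 23.1 TPM. Cdh5 had 3, 6 and 4 reads and Tie1 0, 1 and 1. Vwf, a clotting factor stored by endothelial cells, was at 4.83, 1.14 and 0.354 TPM and among the genes most spread between lines. Of 8 genes for peritubular and smooth muscle cells 5 were on, led by Acta2, smooth muscle actin, at 7.52, 21.0 and 42.3 TPM. Myl9, a myosin light chain, was at 18.7, 24.8 and 9.96 TPM, while Cnn1, calponin of smooth muscle, had 7, 0 and 4 reads.

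Fibroblast genes were abundant in all 3 lines and most in line 3. Of 22 genes, 20 were on (background 56.5%), Fap was in between and Tcf21 had 0 reads in 3 of 3 lines. Sparc, a collagen-binding matrix protein, was at 784, 827 and 3064 TPM. Dcn, the proteoglycan decorin, was at 389, 279 and 2768 TPM, and Vim, the intermediate filament vimentin, at 336, 726 and 1080.2 TPM. Lines 1 and 2 were close for Sparc, and line 3 stood apart. Of the fibrillar collagens, Col1a1 was at 222, 359 and 746 TPM and Col1a2 at 207, 276 and 935 TPM. Col3a1 was at 301, 305 and 1419.7 TPM. Line 3 was the highest for each of these 6 genes. The list held 0.575, 0.771 and 2.63% of the reads, and 0.266%, 0.318% and 1.24% without Col1a1, Col1a2, Col3a1 and Fn1. The 95% Wilson intervals of the whole list's shares reached 0.00628 percentage points at most to either side. Of its 21 members with a mean of at least 1 CPM, 20 were highest in line 3 (background 31.8%) and Twist1 in line 2. All 20 members at a mean of 5 CPM or more differed by over 2-fold between lines, as did 34.5% of all 11400 such genes. The stem spermatogonia list took its smallest share of reads, 0.0584%, in the same line 3. Egr4 alone gave 16891, 16412 and 3036 of the 43115, 46477 and 14555 reads of the stem list. Whether the fibroblast signal has a part in the stem list's share was not tested. In bulk RNA fewer cells of a type cannot be told apart from less RNA per cell.

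**Figure D3:**
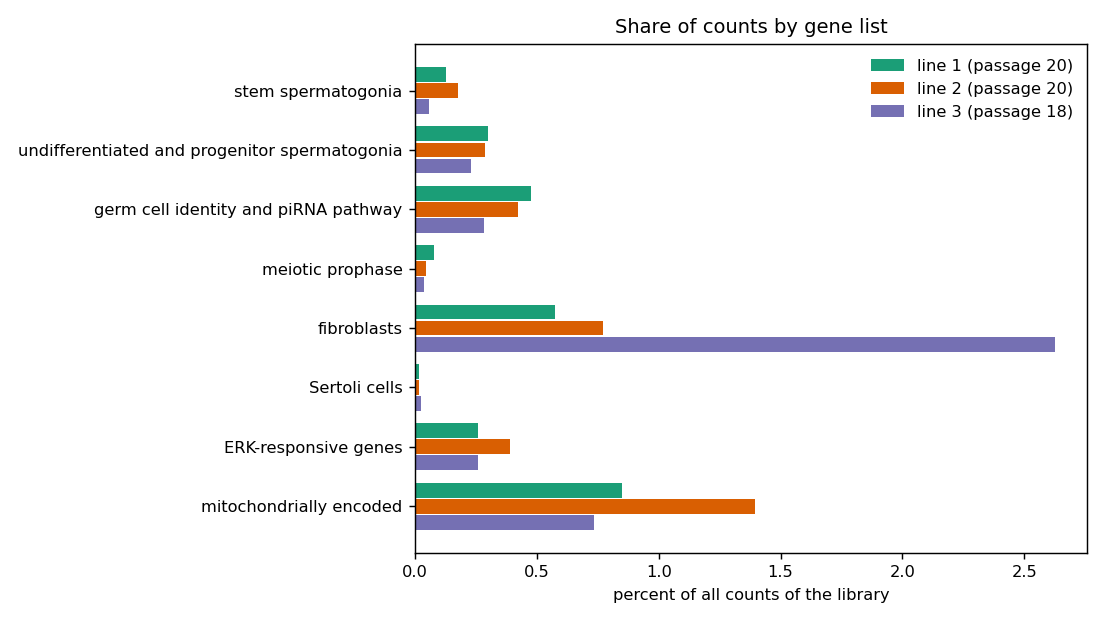
Percent of all reads of each library (horizontal axis, from 0) taken by the genes of 8 lists, 1 bar per wild-type line. The fibroblast list takes 0.575, 0.771 and 2.63% in lines 1, 2 and 3, the stem spermatogonia list 0.127, 0.177 and 0.0584%.

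Receptors for the niche were read as a list of 53 receptor tyrosine kinases, of which 31 were on (background 56.5%), 16 in between and 6 off. The 4 most abundant lay above Fgfr1 and Ret in mean level. Ptk7, a catalytically inactive receptor of the planar cell polarity pathway, was at 339, 372 and 161 TPM. Ryk, a Wnt receptor with an inactive kinase domain, was at 169, 169 and 138 TPM, level across lines. Ddr1, a collagen receptor, was at 168, 139 and 46.0 TPM, and Axl, a GAS6 receptor, at 38.7, 80.1 and 135 TPM. Line 3 was lowest for Ptk7 and Ddr1 and highest for Axl. Of the 4 FGF receptors, Fgfr1 was the highest in every line at 50.5, 70.0 and 53.1 TPM. Fgfr2 was at 3.48, 3.94 and 5.82 TPM and Fgfr3 at 2.14, 2.05 and 1.16 TPM, and Fgfr4 was in between at 1.10, 0.723 and 0.201 TPM. Egfr was at 6.19, 9.53 and 25.2 TPM and highest in line 3, and Erbb2 at 36.1, 45.6 and 20.4 TPM and lowest there. Erbb4, Ros1 and Tie1 were among the 6 that were off.

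The Eph receptors bind membrane-held ephrins and sort cells by contact. Ephb2, the gene that the series targets in other lines, was on in the wild-type lines at 5.11, 5.85 and 2.10 TPM (4.35 ± 1.98 TPM, SD, n = 3), or 794, 691 and 261 reads over chr4:136647539-136835988, minus strand. It was not the leading member of its family. Ephb6, which lacks kinase activity, was at 39.7, 32.0 and 19.8 TPM, and Ephb4 at 23.2, 24.7 and 27.4 TPM. Both lay above Ephb2 in every line. Ephb1, at 6.19, 7.66 and 4.43 TPM, also lay above Ephb2 in every line. Ephb3, at 6.79, 4.14 and 6.77 TPM, lay above it in lines 1 and 3 and below it in line 2. Ephb2 thus had the lowest mean of the EphB receptors in the list. In the A class, Epha1 was at 26.8, 27.2 and 10.7 TPM. Epha2 was at 8.68, 102 and 8.08 TPM, high in line 2, with lines 1 and 3 close together. Epha5, Epha6 and Epha10 were off. All 8 of the 8 ephrin ligands were on. Efna4 was the highest at 41.6, 31.8 and 33.2 TPM, and Efnb3, an ephrin of the class that EPHB2 prefers, was at 36.0, 38.0 and 17.8 TPM.

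Most other receptor families were on as well. Coreceptors and cytokine receptors were on in 16 of 18 (background 56.5%), with Ifngr1 at 57.4, 62.4 and 66.0 TPM and Il6st, the shared gp130 subunit, at 31.4, 35.7 and 34.6 TPM. Csf2ra, the alpha chain of the GM-CSF receptor, was at 18.4, 14.3 and 8.29 TPM while the signalling chain Csf2rb had 0, 1 and 3 reads. Ccr1 was in between at 0.0287, 1.39 and 0.108 TPM. Receptors of the TGF-beta and BMP family were on in 13 of 14. Bmpr1a, a type I BMP receptor, was level at 58.2, 58.4 and 53.9 TPM with a CPM ratio of 1.02 between the highest and lowest lines. Tgfbr2 was at 29.1, 28.9 and 107 TPM, high in line 3, and Acvr1c was off. Wnt and Notch receptors were on in 17 of 19, led by Fzd2 at 129.8, 133 and 72.9 TPM, and Lgr5 and Notch4 were in between.

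Ligands were more mixed, with 28 of 42 on (background 56.5%), 13 in between and 1 off. Gdnf, which such cultures are usually given as protein, was in between at 0.393, 2.83 and 0.521 TPM and highest in line 2 with 17, 93 and 18 reads. Fgf2 was in between at 0.631, 3.61 and 2.20 TPM and lowest in line 1. Fgf8 was on at 13.4, 11.1 and 3.76 TPM. Gdnf lay below both Gfra1 and Ret in every line. Among the highest ligands was Cxcl12, the ligand of CXCR4, at 46.6, 30.3 and 252 TPM. Pdgfb, a platelet-derived growth factor chain, was at 63.3, 109 and 28.1 TPM, and Csf1, a macrophage factor that also acts on spermatogonia, at 16.7, 66.4 and 57.7 TPM. Cxcl12 was highest in line 3 and Pdgfb lowest there. Areg, an EGF receptor ligand, was at 3.11, 11.7 and 0.593 TPM and highest in line 2. Kitl, the ligand of KIT named among the Sertoli cell genes, was highest in line 3 and lowest in line 1.

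Downstream of these receptors, 34 of 36 genes of the ERK and AKT core were on (background 56.5%), and the 2 in between were the Src-family kinases Fgr and Blk, best known from blood cells. Mapk3 (ERK1) was at 164, 145 and 104 TPM. Map2k1 (MEK1) was at 114, 102 and 102 TPM and Pik3cd, a catalytic PI3-kinase subunit best known from leukocytes, at 115, 125 and 35.1 TPM. Of the core's 33 members at 5 CPM or more, 7 differed by over 2-fold between lines, against 34.5% of all 11400 such genes. That background falls with level, to 27.9% at a mean of 20 CPM or more and 23.2% at 100 CPM or more. Genes matched to the core by level were not compared. Genes that respond to ERK varied more, with 15 of 18 over 2-fold. They were highest in line 2 in 12 of 19 (background 25.8%). Dusp5, a nuclear ERK phosphatase, was at 97.0, 394 and 50.1 TPM, and Dusp6, its cytoplasmic counterpart, at 92.9, 273 and 91.4 TPM. Spry4 and Spred1 encode feedback inhibitors of receptor signalling. Spry4 was at 14.1, 68.9 and 4.52 TPM and Spred1 at 42.0, 118 and 37.2 TPM. Etv4, the close relative of Etv5, was at 13.1, 73.9 and 9.75 TPM and Fosl1, an AP-1 subunit, at 24.1, 84.9 and 17.0 TPM. In all 6, line 2 was the highest line and lines 1 and 3 were the closer pair. The immediate-early genes of the list had no common order. Fos was at 784, 559 and 707 TPM and lowest in line 2. Egr1 was at 713, 846 and 334 TPM with line 2 highest, and Junb at 344, 443 and 1066 TPM with line 3 highest. Ier3, an early response gene, was at 69.8, 127 and 78.1 TPM and, like the 6, highest in line 2 with lines 1 and 3 the closer pair. Etv1, the third gene of the Etv4 group, was in between at 0.207, 0.616 and 1.76 TPM.

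Of 8 DNA methylation enzymes 5 were on (background 56.5%), and line 3 was lowest in 5 of the 6 members with a mean of at least 1 CPM (45.2% of all 13759 such genes). Dnmt1, the maintenance methyltransferase, was at 104, 145 and 50.3 TPM and its partner Uhrf1 at 49.3, 69.3 and 24.3 TPM. The de novo enzymes Dnmt3a and Dnmt3b were at 24.3, 26.6 and 12.2 TPM and 21.0, 35.7 and 11.2 TPM, both lowest in line 3. Their cofactor Dnmt3l was in between at 0.543, 0.928 and 1.02 TPM. The TET dioxygenases, which oxidise methylcytosine, were of unlike level: Tet3 was on at 14.3, 9.20 and 4.88 TPM, and Tet2 in between at 0.893, 0.349 and 0.520 TPM. Tet1 was off at 0.0938, 0.0870 and 0.0276 TPM. On the sex chromosomes, 415 of 836 protein-coding genes of the X were on (49.6%) and 7 of 120 of the Y, while the autosomes ranged from 44.9% on chromosome 14 to 66.3% on chromosome 12. Eif2s3y, a Y-linked translation factor needed by spermatogonia, was at 59.6, 52.2 and 34.3 TPM. Xist, the RNA that coats an inactive X, stayed at 0.231, 0.113 and 0.0623 TPM. Genes of the Y with near-identical copies lose reads to multiple matches.

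The spread between the 3 lines was wide for part of the genes. Among the 11400 genes with a mean of at least 5 CPM, 3930 differed by over 2-fold between the highest and lowest line (34.5%), 795 by over 4-fold and 114 by over 10-fold, while 1033 lay within 1.2-fold. The median ratio was 1.72 and the median coefficient of variation 27.6%. Counting alone limits the precision at 5 CPM to 7.66% to 8.96%. The biological coefficient of variation that edgeR estimated over the 3 lines was 0.414. Lines 1 and 2 were the closest pair, with 8.79% of these genes over 2-fold apart, against 18.1% for lines 1 and 3 and 24.6% for lines 2 and 3. Across genes, which are not independent replicates, Pearson correlations of log2 CPM were 0.947, 0.869 and 0.847 for these pairs. Of the 3930 genes, line 3 was the one farthest from the middle line in 2405 (61.2%). Without line 3, 1036 genes were over 2-fold. Without line 2, 2216 were, and without line 1, 2938.

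**Figure D4:**
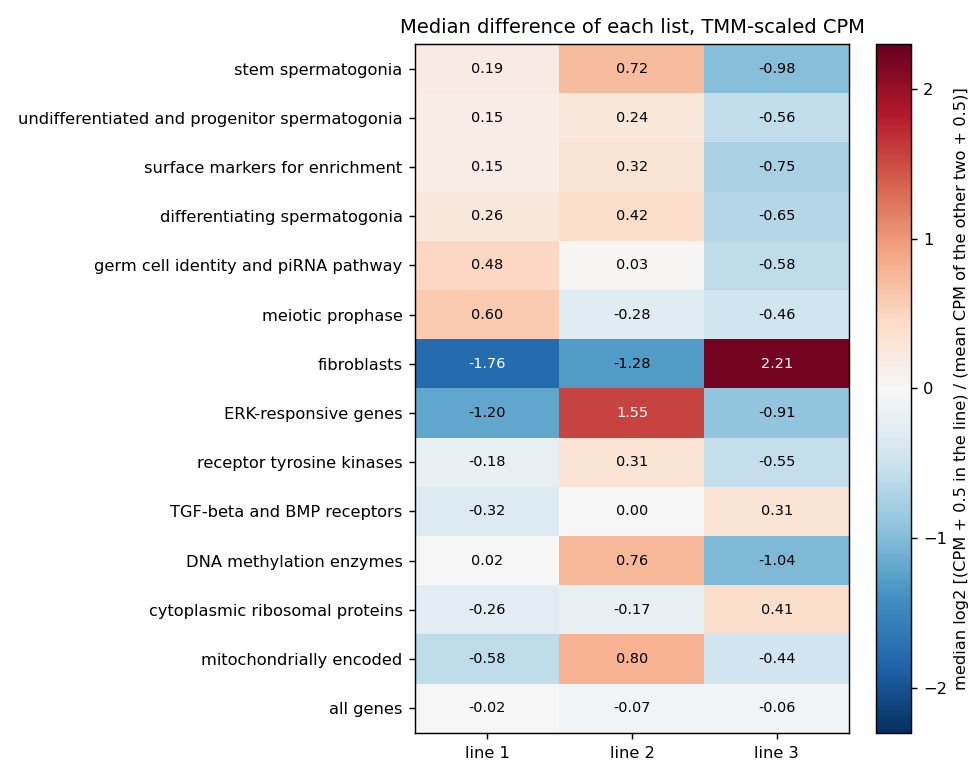
Median over the members of each list (rows) of the log2 ratio between a line (columns) and the mean of the other lines, from CPM scaled by TMM with 0.5 added, for members with a mean of at least 1 CPM. Fibroblast genes reach 2.21 in line 3, ERK-responsive genes 1.55 in line 2 and meiotic genes 0.60 in line 1, against -0.02, -0.07 and -0.06 for all genes.

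Lists differed between lines in different directions. The scaling matters here: by total counts the median gene was 0.15, -0.14 and -0.16 above or below the other lines on the log2 scale, and by TMM -0.02, -0.07 and -0.06. By total counts 42.4% of genes were highest in line 1, and by TMM 29.6%. Stem spermatogonia genes were lowest in line 3 in 14 of 17 by total counts and by TMM (45.2% and 41.6% of all genes), with a median of -1.06 by total counts and -0.98 by TMM. Germ cell identity genes were highest in line 1 in 17 of 21 by total counts and in 15 by TMM. They were lowest in line 3 in 12 of 21 by total counts and by TMM (57.1%, against 45.2% and 41.6% of all genes). With DESeq2 size factors 15 of 21 were lowest there, against 41.1% of all genes. Meiotic genes were highest in line 1 in 19 of 22 by total counts and in 18 by TMM, with a median of 0.73 and 0.60. ERK-responsive genes had a median of 1.48 and 1.55 in line 2, and fibroblast genes of 2.13 and 2.21 in line 3. Each of these medians had the same sign by total counts and by TMM. The change of scaling moved the median gene by less than the size of any of them, so it could not turn a sign.

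Among genes with a mean of at least 10 CPM, the 10 with the largest ratios were taken for each line. Those of line 3 had larger ratios than those of lines 1 and 2. Lum (lumican) was at 13.1, 3.40 and 159.7 CPM and Aspn (asporin), another small leucine-rich proteoglycan, at 16.1, 3.93 and 224 CPM. Ptn (pleiotrophin), a secreted growth factor, was at 5.99, 0.801 and 51.0 CPM, a ratio of 63.6. Lines 1 and 2 were both far below line 3, with line 2 the lowest for all 10 genes named by this rule, which also include Clec2d, Agtr2, Sparcl1, Akr1c14, Rian, Adamts5 and Dkk2. Their ratios ran from 33.0 to 63.6. Genes highest in line 2 were led by Tnc (tenascin C), a matrix glycoprotein, at 4.91, 128 and 19.13 CPM, and Il1rl1, the interleukin-33 receptor, at 2.94, 54.6 and 19.05 CPM. Line 1 was the lowest for both. Epha2 was at 14.7, 170.4 and 14.9 CPM, and Itga5, the fibronectin receptor subunit, at 24.5, 246 and 70.1 CPM. Ereg, an EGF receptor ligand, was at 4.76, 48.5 and 9.23 CPM. Spry4, Egr3, Cd74, Sall3 and Etv5 complete these 10, with ratios from 9.06 to 26.1. The 10 genes of line 1 do not include Sycp1 and Gtsf1, which lay below the minimum with at most 2 reads in lines 2 and 3 and are described below. Vwf led them at 28.1, 6.56 and 2.25 CPM. Sfi1, a centrosome protein with copies elsewhere in the genome that make its reads uncertain, was at 82.8, 7.02 and 30.1 CPM, and Mov10l1, a helicase needed to make piRNAs, at 93.8, 8.01 and 27.5 CPM. Rab3a, Atp12a, Cdh1, B3gnt5, Gcnt4 and 2 predicted genes complete the 10, with ratios from 5.37 to 12.5.

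Some genes hardly differed at all. Psmb7, a catalytic subunit of the proteasome, was at 370.3, 371 and 371 CPM. Bccip, a BRCA2-interacting protein, was at 86.4, 86.7 and 86.5 CPM and Rab1b, a GTPase of transport from the endoplasmic reticulum, at 202, 199.7 and 199 CPM. The other 7 of the 10 genes with the lowest coefficient of variation at a mean of 50 CPM or more were Ccdc127, Ube2f, Lasp1, Atp5j, Gcsh, Bmpr1a and Wbp1l, all within 1.02-fold. Commonly used reference genes were less level: Gapdh was at 307, 384 and 243 CPM and Actb at 1687, 2598 and 1484 CPM, both highest in line 2. B2m was at 195, 286 and 600.2 CPM and Pgk1 at 42.7, 58.9 and 136 CPM, both highest in line 3. Of the 15 in that list 3 differed by over 2-fold. The background was 34.5% of genes at a mean of 5 CPM or more and 23.2% at 100 CPM or more. Hsp90ab1 and Tbp were among the most level, with ratios of 1.14 and 1.21.

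A small group of genes was present in 1 line only, defined as at least 1 TPM and 30 reads in that line and under 0.1 TPM in the other lines, a rule chosen after the values were seen. It held 17 genes of 41053 (0.0414%): 13 in line 1, 1 in line 2 and 3 in line 3. Several of the 13 have roles in germ cells. Sycp1, the transverse filament of the synaptonemal complex (chr3:102818499-102936100, minus strand), had 668, 1 and 1 reads. Hormad1, which marks unsynapsed chromosome axes in meiosis (chr3:95559677-95587671, plus strand), had 243, 0 and 0 reads and was at least 61.6-fold higher in line 1 than the floor of 3 reads per library. Xlr5a and Xlr5b, near-identical X-linked members of a family related to Sycp3, had 215, 0 and 0 and 124, 0 and 0 reads, and reads that match both copies were not counted. Naa11, a testis-enriched N-acetyltransferase, had 72, 0 and 0 reads, at least 18.3-fold above the floor. The other genes of line 1 were Stab2, a scavenger receptor, with 112, 7 and 7 reads, and Gm16270, a pseudogene on the opposite strand inside it, with 191, 0 and 0 reads, together with Gm14222, Mir5125, H2-Q6, Klhdc9, Nr2e1 and Slc12a3. H2-Q6 has close paralogs, so its reads are uncertain. Sh2d1b2 was the gene of line 2, with 0, 38 and 0 reads. Those of line 3 were Il1rn, the interleukin-1 receptor antagonist, with 3, 2 and 72 reads, and Agmo, an ether lipid enzyme, with 6, 3 and 71 reads. Cstad, the third, had 1, 0 and 33 reads. Line 1 had the deepest library. For Hormad1 a count of 0 in lines 2 and 3 allows a level of up to 0.185 TPM in either of them, against 11.4 TPM in line 1.

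Sycp3 and Gtsf1 fell just outside this rule with the same pattern. Sycp3, the axial element of the synaptonemal complex (chr10:88459569-88473236, plus strand), had 510, 8 and 6 reads, or 32.8, 0.675 and 0.482 TPM, so lines 2 and 3 lay above 0.1 TPM. Gtsf1 (chr15:103402405-103430470, minus strand) had 571, 2 and 1 reads, or 33.4, 0.154 and 0.0731 TPM, and line 2 lay above 0.1 TPM. Other meiotic genes were shared by the lines: Rec8 had 7152, 3384 and 1826 reads, Syce2 2777, 1614 and 1521 and Hormad2, the paralog of Hormad1, 767, 600 and 452. Of the 23 meiotic genes, Sycp1 and Hormad1 thus met the rule, beside 13 of all 41053 genes in line 1. Sycp3, and Gtsf1 of the 24 germ cell identity genes, did not meet it and were named after their values were seen. How many other genes fell as close to the rule was not counted.

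**Figure D5:**
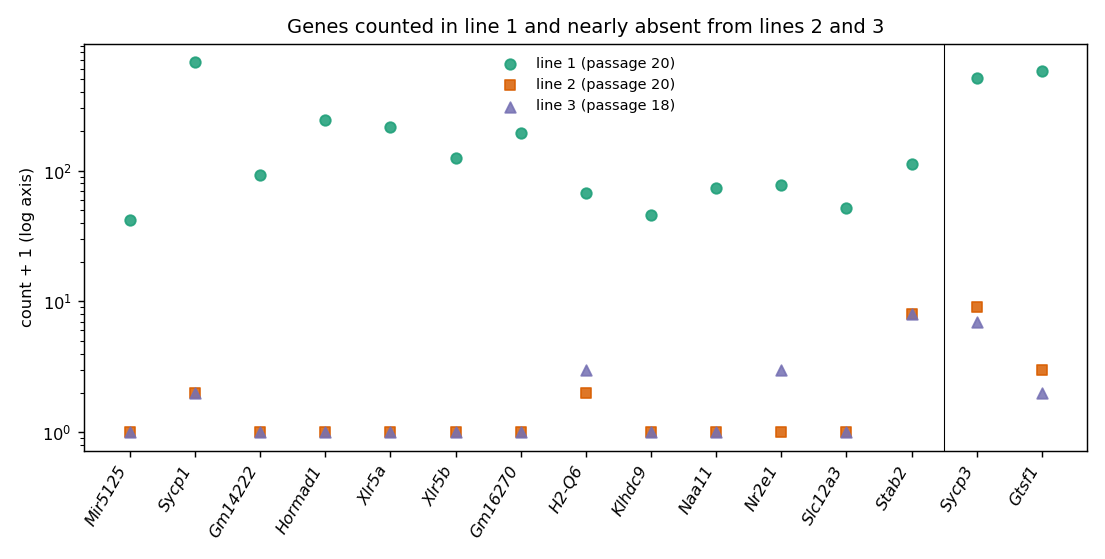
Read counts plus 1 (vertical log axis) in each of the 3 wild-type lines for the 13 genes present in line 1 only and, right of the vertical line, for Sycp3 and Gtsf1. Line 1 has 41 to 668 reads for every gene, and lines 2 and 3 have 8 or fewer.

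The sequences before the starts of these genes are shown for 4 of the genes chosen for high counts in line 1 and few in the other lines. Each is the 250 bases upstream of the annotated start from RefSeq on GRCm38.p6, 5′ to 3′ on the gene's strand, with every CpG dinucleotide in capitals. CpG is the site of DNA methylation in mammals. Dazl, on in 3 of 3 lines, and Prm1, with 0 reads in 3 of 3, are given beside the 4 genes of line 1. The windows are chr3:102936101-102936350, minus strand for Sycp1, chr3:95559427-95559676, plus strand for Hormad1, chr10:88459337-88459586, plus strand for Sycp3, chr15:103430428-103430677, minus strand for Gtsf1, chr17:50293621-50293870, minus strand for Dazl and chr16:10796824-10797073, minus strand for Prm1.
Sycp1: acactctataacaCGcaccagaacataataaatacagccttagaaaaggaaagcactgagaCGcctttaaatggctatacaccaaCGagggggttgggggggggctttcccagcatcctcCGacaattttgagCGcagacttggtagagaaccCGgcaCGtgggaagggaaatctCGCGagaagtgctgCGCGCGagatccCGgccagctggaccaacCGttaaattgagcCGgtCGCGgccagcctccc
Hormad1: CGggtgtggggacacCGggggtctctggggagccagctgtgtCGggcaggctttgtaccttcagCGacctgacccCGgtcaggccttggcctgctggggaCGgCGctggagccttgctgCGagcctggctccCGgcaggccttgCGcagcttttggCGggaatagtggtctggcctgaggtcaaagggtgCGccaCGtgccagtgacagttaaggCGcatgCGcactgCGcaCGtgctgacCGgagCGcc
Sycp3: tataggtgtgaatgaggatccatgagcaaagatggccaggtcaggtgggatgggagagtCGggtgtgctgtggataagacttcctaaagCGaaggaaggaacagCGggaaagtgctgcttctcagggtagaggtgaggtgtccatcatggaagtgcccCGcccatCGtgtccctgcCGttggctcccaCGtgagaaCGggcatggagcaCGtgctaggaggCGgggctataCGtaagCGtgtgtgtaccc
Gtsf1: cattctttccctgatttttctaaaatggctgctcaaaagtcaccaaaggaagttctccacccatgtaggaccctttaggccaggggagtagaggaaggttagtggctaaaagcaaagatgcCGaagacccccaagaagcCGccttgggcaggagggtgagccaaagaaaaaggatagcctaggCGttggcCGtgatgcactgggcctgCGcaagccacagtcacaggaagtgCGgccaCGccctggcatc
Dazl: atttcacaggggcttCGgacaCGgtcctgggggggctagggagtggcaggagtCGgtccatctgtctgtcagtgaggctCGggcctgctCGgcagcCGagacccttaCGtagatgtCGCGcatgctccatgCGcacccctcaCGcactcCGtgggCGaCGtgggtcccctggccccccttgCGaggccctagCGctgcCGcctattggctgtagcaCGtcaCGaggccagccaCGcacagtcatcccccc
Prm1: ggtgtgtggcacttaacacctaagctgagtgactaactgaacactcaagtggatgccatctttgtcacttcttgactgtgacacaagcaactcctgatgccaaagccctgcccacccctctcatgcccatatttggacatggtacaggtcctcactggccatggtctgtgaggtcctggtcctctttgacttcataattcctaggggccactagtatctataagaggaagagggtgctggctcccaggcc
The windows held 17 CpG for Sycp1, 19 for Hormad1, 12 for Sycp3, 7 for Gtsf1, 20 for Dazl and 0 for Prm1. The ratio of observed to expected CpG was 0.893 for Sycp1, 0.671 for Hormad1, 0.639 for Sycp3 and 0.380 for Gtsf1. The motif CACGTG, which is its own reverse complement, was in the windows of Sycp1, Hormad1 and Sycp3, and in 6.92% of all 16023 windows. Of the 9 matched windows of genes present in line 1 only, those of Sycp1 and Hormad1 held it (22.2%), and those of H2-Q6, Klhdc9, Naa11, Nr2e1, Slc12a3, Stab2 and Xlr5b did not. The motif TTCCCGC, searched on both strands, was in those of Hormad1, Sycp3 and Naa11, and in 5.14% of all windows. These are matches of letters and not evidence of binding. No methylation was measured here.

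The same windows differed between genes that were on and off across the whole transcriptome. The median was 17 CpG in 250 bases for the 8572 protein-coding genes that were on, 6 for the 2539 in between and 2 for the 3344 that were off. A ratio of observed to expected CpG of at least 0.6 was found in 72.7%, 25.7% and 4.76% of these groups, and in 86.7% of the 75 genes with a mean of at least 1000 TPM. The motif TATAAA, on either strand, went the other way, with 5.67% of windows of genes that were on and 27.7% of genes that were off. It holds only A and T, and the median GC content of these windows was 60.8% and 43.2%. Windows of like base content were not compared. In the germ cell identity list 47.4% of 19 windows held CACGTG, in the meiotic list 27.8% of 18 and in the spermatid list 0% of 15. It was in 20% of 15 stem spermatogonia windows, 0% of 13 for undifferentiated and progenitor spermatogonia and 8.98% of all protein-coding genes that were on. The motif TTCCCGC was in 33.3% of the 18 meiotic windows. Those 18 include the windows of Sycp1, Hormad1 and Sycp3 shown above, so the meiotic shares are not separate from those matches. Both motifs hold a CpG. The median was 17, 12.5 and 2 CpG in germ cell identity, meiotic and spermatid windows. It was 14 in stem spermatogonia windows and 11 in those of undifferentiated and progenitor spermatogonia. The shares describe the lists and were not tested.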

How the data were processed

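The files hold deposited raw counts, 1 per gene name, beside exon lengths. Per the file headers, they were made by the authors with featureCounts 1.4.6-p4 on 1 merged alignment per library, over exons of GENCODE vM3 with strand setting 2 and none of the options for paired, multi-matching or overlapping reads. Genes with close copies therefore lose reads. The submitters' processing notes also name STAR, FastQC and GRCm38.p3; versions of the aligner are not stated there. CPM and TPM were computed from the counts with Python 3.11.15, pandas 2.3.3 and numpy 2.4.6. TMM and the biological coefficient of variation came from edgeR 4.0.16, size factors from DESeq2 1.42.0, in R 4.3.3. The functions were tested on simulated counts. With 1 group no test was run.

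The lines, the 28 lists and the rules were chosen with earlier results of these data known. Named were the 20 genes highest in TPM, the 15 highest once mitochondrial, ribosomal protein and predicted genes were set aside, a fixed set, and from each list up to 4 highest members, up to 3 that were off and those in between. The rule added 10 genes per line with the largest ratio (mean of at least 10 CPM) and the 10 of lowest variation (mean of at least 50 CPM). Members named beyond it were chosen after their values were seen. Gene kinds were matched by name to GENCODE vM21 for 36857 genes (89.8%). Promoters came from RefSeq for the 16023 genes with a RefSeq start within 1000 bases of the start in the files. No library repeated another, with chi-square per degree of freedom of 91.6 to 275 between pairs. Alternatives changed the thresholds, scaling, filter and lines used. Figures were drawn with matplotlib 3.10.9.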

Additional observations from a re-analysis of the deposited data

How the results depend on the processing

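No paired analysis was possible because only 1 group was used. The genes on numbered 13100 and ranged from 9876 at 5 TPM to 14300 at 0.5 TPM. TMM scaling gave 13109, leaving out mitochondrial genes 13127, a minimum of 10 reads 13083, and leaving out a line 13262 to 13576. Leaving out a line cannot lower a count of genes on, since fewer lines must then reach 1 TPM. Genes off ranged from 13920, once models under 200 bases were left out (chosen after seeing the data), to 23462 at 0.5 TPM for off. At 0.5 TPM, 7 spermatid, 1 Leydig cell and 3 endothelial genes were on. At 5 TPM, 0 spermatid, 6 Sertoli cell, 3 peritubular, 11 Wnt and Notch receptor, 16 ligand and 15 histone genes were on. Without line 3, where the same rule allows only a rise, 1 Leydig cell, 4 endothelial and 11 pluripotency genes were on. Genes over 2-fold between lines numbered 3684 with TMM, 3707 with DESeq2 size factors, 5425 at a mean of 1 CPM and 2321 at 20 CPM, and 1036 to 2938 when a line was left out, fewest without line 3. The 100 most abundant genes held 14.9% of reads on average and 25.8% of TPM. The fibroblast list held 1.33% of reads on average and 0.645% of TPM, 0.776% without Col3a1, Sparc and Dcn, and 0.673% to 1.70% when a line was left out. The biological coefficient of variation was 0.303 without line 3 and 0.463 without line 1. The counts of genes in 1 line only depended on the minimum of reads: 127, 43 and 60 with none and 17, 3 and 5 with 10. At 0.5 TPM in that line and 0.05 TPM in the others they were 12, 1 and 0. For short genes 3 reads exceed 0.1 TPM, so off is not resolved there. The 3 libraries, 1 per line, limit every spread given.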

Other observations

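Further groups of genes were read afterwards, chosen after other values of these data were seen. Some of their members, among them Gapdh, Pgk1, Igf2 and Rhox13, are also in lists above. Glycolysis genes were on in 16 of 16 (background 56.5% of protein-coding genes), with a median of 165 TPM. Of the 16, 12 were highest in line 2 by total counts and by TMM (25.8% and 32.9% of all genes). Pkm, pyruvate kinase, was at 1157, 1783 and 1186 TPM, Aldoa, aldolase A, at 341, 494 and 370.3 TPM and Slc2a1, the glucose transporter GLUT1, at 274, 297 and 138 TPM. Hk2, an inducible hexokinase, was at 7.66, 48.6 and 7.49 TPM, with lines 1 and 3 close and line 2 apart, the same shape as Etv5 and Epha2. Cell cycle genes were on in 17 of 17 (background 56.5%). Pcna and Cdk1 were level at 145, 152 and 159.6 TPM and 24.3, 27.7 and 26.2 TPM, while Mki67 was at 9.48, 15.7 and 3.00 TPM and Top2a, topoisomerase II alpha, at 93.9, 144 and 52.3 TPM. Line 3 was the lowest in 12 of 17 (45.2% of all genes). The inhibitors of cyclin-dependent kinases in the group had no common order. Cdkn1a (p21) was highest in line 3, at 171, 180.1 and 837 TPM. Cdkn2a and Cdkn2b were lowest there, at 195, 169 and 112 TPM and 21.8, 20.4 and 10.2 TPM. Cdkn1b was highest in line 1, at 90.9, 32.8 and 52.1 TPM.

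Imprinted genes, expressed from 1 parental copy, were on in 18 of 24. The group mixes coding and non-coding genes, and the background was 31.9% of all genes and 56.5% of protein-coding genes. Ndn was at 166, 161 and 205 TPM, Mest at 93.7, 183 and 67.6 TPM and Cdkn1c at 95.6, 147 and 60.2 TPM. In the Dlk1 to Meg3 domain Dlk1 was at 25.5, 23.0 and 103 TPM, Rian at 0.931, 0.193 and 7.97 TPM and Meg3 at 0.503, 0.0472 and 0.253 TPM, so Rian and Dlk1 were highest in line 3 and Meg3 was not. H19 was at 9.72, 11.2 and 29.9 TPM and its neighbour Igf2 at 3.22, 9.68 and 2.63 TPM, in different orders of the lines. Among 13 X-linked germ cell genes 11 were on, against 49.6% of all protein-coding genes of the X. Taf7l, a germ cell paralog of a TFIID subunit, was at 617, 396 and 288 TPM. Tex11 was at 142, 148 and 71.4 TPM and Rhox10 at 138, 89.5 and 71.6 TPM. Magea4 and Xlr5c, a close relative of Xlr5a and Xlr5b, had 0 reads in 3 of 3 lines.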
